A study of Drosophila melanogaster with 26 samples.

Results

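The normoxic transcriptome of *dERR,sima* double-mutant larvae was compared with that of *w1118* control larvae, using 3 arrays of each genotype out of the 26 arrays of the study. All 18769 probe sets other than the array controls were tested. The double-mutant animals were homozygous for the *sima07607* allele and carried the *dERR1* allele on one chromosome and the *dERR2* allele on the other (*Sima07607,dERR1*/*Sima07607,dERR2*). The single mutants in normoxia, *sima* (*sima07607*) and *dERR* (*dERR1*/*dERR2*), with 3 arrays each, were used to place the double-mutant values. Controls were *w1118* larvae, which carry none of these alleles. All 4 groups were late-L3 larvae with partially cleared guts, 10 to 4 h ahead of pupariation, held for 6 h at 25°C in normal air, with pools of at least 10 whole animals for each replicate. The *sima07607* allele is a P-element that sits in the first *sima* intron and is lethal. The double-mutant chromosomes were made by recombining it with each *dERR* allele, and mutant larvae were picked from balanced stocks by the lack of a GFP balancer. Whole larvae mix all tissues, so fewer cells of a type and less RNA per cell cannot be told apart.

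The *sima* gene encodes dHIFα, the oxygen-regulated subunit of hypoxia-inducible factor (HIF), which pairs with Tango and turns on genes of glycolysis, oxygen delivery and oxygen sensing when oxygen falls. In normal air prolyl hydroxylase marks the protein for Vhl-dependent breakdown. dERR is the only estrogen-related receptor of the fly, a nuclear receptor known in larvae for driving glycolytic genes and the aerobic glycolysis that goes with larval growth.

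Levels below are log2 of the deposited intensity, with replicates 1, 2 and 3 in that order, and changes are log2 differences, double-mutant minus *w1118* unless another pair is named. Means are given ± SD (n = 3). A probe set was called changed at 1.5-fold or more and a Benjamini-Hochberg adjusted p under 0.01 (limma). The array medians were 5.29 to 5.42 in double-mutants and 5.52 to 5.53 in *w1118*. Over probe sets, the SD within a genotype had a median of 0.16 in double-mutants, 0.13 in *sima*, 0.18 in *dERR* and 0.11 in *w1118*. The difference between the 5′ and 3′ probe sets of actin, a measure of RNA integrity and labelling, was -1.39, -1.55 and -1.43 in double-mutants and -2.24, -1.96 and -2.18 in *w1118*. The same difference for eIF-4a was -2.20, -2.38 and -2.47 in double-mutants and -2.83, -2.66 and -2.98 in *w1118*. These values did not overlap between the genotypes, and their part in the results below was not tested.

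The *sima* transcript measured 6.15, 5.94 and 5.59 in double-mutants, against 7.88, 7.63 and 7.91 in *w1118*. Every double-mutant array was below every control array, and the change was -1.91 (SE 0.17, adjusted p = 4.27e-07). The double-mutant level, 5.89 ± 0.29, was close to the 5.61 ± 0.071 of *sima* single mutants, from which it differed by 0.29 (adjusted p = 0.543). The *ERR* gene, which encodes dERR, had 1 probe set, which lay below the median of its arrays. It measured 4.99, 4.92 and 4.94 in double-mutants and 4.98, 4.93 and 4.75 in *w1118*, values that overlapped (change 0.062, SE 0.14, adjusted p = 0.817). It lay at 4.56 ± 0.16 in *dERR* single mutants. The sources used here do not place the 2 *dERR* lesions relative to this probe set, so it checks neither label.

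Between double-mutants and *w1118*, 168 probe sets were called, or 0.895% of those tested, with 93 higher (0.495%) and 75 lower (0.4%) in double-mutants. They include 140 genes with a probe set of their own, while 10 probe sets are listed for several genes and 14 for none. The rises had a median of 1.57 and the falls a median of -1.64, and 30 rises and 28 falls were 4-fold or more. The 3 arrays of each genotype did not overlap for any of the 168, but this held for 38.9% of all probe sets. Centring the arrays on their medians put the median change over all genes at 0.15 in place of -0.0046, and the split was then 100 higher and 50 lower, or 66.7% higher against 55.4%. The split was 104 higher and 66 lower with quantile normalization, and 97 and 115 with the 12 normoxic arrays alone. SAM, coded here rather than run with the study's program, gave 389 and 600. Which direction held more calls thus depended on the processing. With 1 array left out, the count was 81 without double-mutant replicate 3, 87 without *w1118* replicate 3 and 88 without *w1118* replicate 2. It was 102 without double-mutant replicate 1, 103 without *w1118* replicate 1 and 114 without double-mutant replicate 2.

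**Figure D1:**
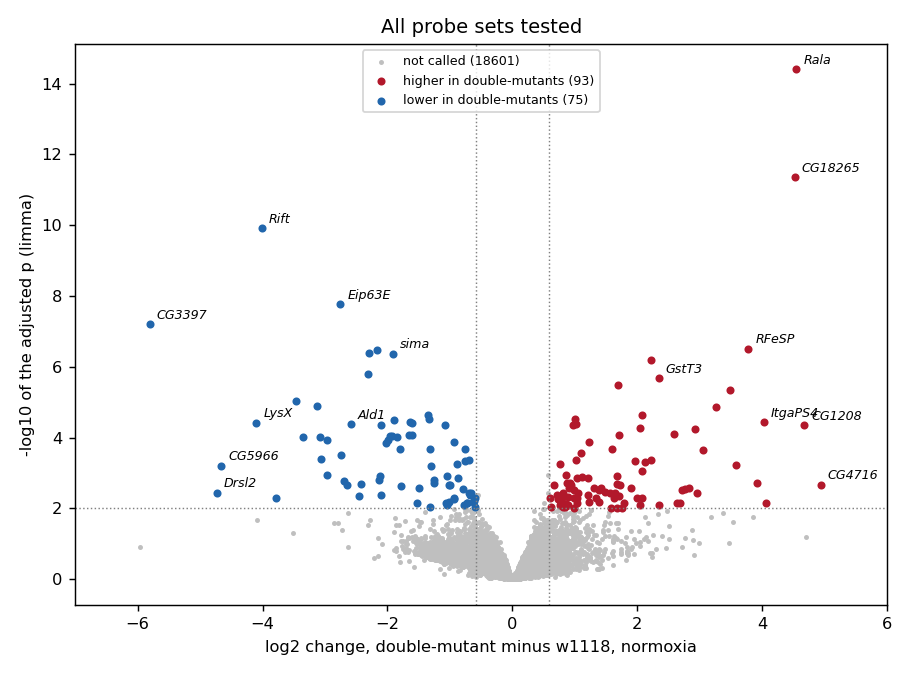
Log2 change between double-mutants and *w1118* in normoxia (x axis) against -log10 of the limma adjusted p (y axis) for the 18769 probe sets tested. Red points are the 93 called higher and blue points the 75 called lower in double-mutants, dotted lines mark the 1.5-fold minimum and the adjusted p of 0.01, and *CG3397* lies farthest left among the called points.

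Among the 10 largest rises were genes of cell adhesion, signalling, respiration, detoxification and antibacterial defence. *CG4716* had the largest, at 8.78, 10.20 and 10.04 in double-mutants and 4.55, 4.26 and 5.43 in *w1118*, which is 4.93 higher (SE 0.85, adjusted p = 0.00213). Its second probe set rose by 4.06. The groups lay over 3 log2 units apart, although the call was lost when double-mutant replicate 2 or 3 or *w1118* replicate 1 or 2 was left out (adjusted p from 0.0121 to 0.0171), and that of the second probe set under each of the 6 omissions (adjusted p from 0.0122 to 0.0427). *CG1208* measured 9.56, 8.90 and 9.66 in double-mutants and 5.78, 3.90 and 4.43 in *w1118* (4.67, SE 0.58, adjusted p = 4.53e-05). *Rala*, a Ras-like small GTPase, was at 9.58, 9.38 and 9.34 in double-mutants against 4.76, 5.04 and 4.86 in *w1118*, and had the smallest p of all probe sets (4.54, SE 0.14, adjusted p = 3.97e-15). *CG18265* measured 7.85, 7.83 and 7.61 in double-mutants and 3.26, 3.16 and 3.33 in *w1118* (4.52, SE 0.20, adjusted p = 4.37e-12). The tight replicates of *Rala* and *CG18265* contrast with those of *CG4716*, whose SD was 0.78 in double-mutants.

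The remaining large rises were smaller by degrees. *ItgaPS4*, an integrin alpha subunit, measured 7.52, 6.54 and 7.67 in double-mutants and 3.73, 3.05 and 2.88 in *w1118* (4.02, SE 0.48, adjusted p = 3.71e-05). *RFeSP*, the Rieske iron-sulfur protein of respiratory complex III, rose by 3.78 on 1 probe set, with 6.65, 6.87 and 7.77 in double-mutants and 3.44, 3.18 and 3.35 in *w1118* (SE 0.32, adjusted p = 3.06e-07). Its other probe set gave 0.27 (adjusted p = 0.549), so the 2 probe sets of this gene disagreed. *Rnf11*, a RING finger protein, also gave unequal values, 3.48 (adjusted p = 4.49e-06) and 0.80 (adjusted p = 0.0435). *Cyp6a17*, a cytochrome P450 enzyme, was at 6.34, 7.16 and 7.31 in double-mutants and 4.00, 3.82 and 3.21 in *w1118* (3.26, SE 0.36, adjusted p = 1.34e-05). *AttD*, an attacin antibacterial peptide, rose by 2.95 (SE 0.54, adjusted p = 0.00354). That call was lost when any 1 of the 6 arrays was left out (adjusted p from 0.0113 to 0.0253). *CG9877* measured 12.61, 12.32 and 12.78 in double-mutants and 9.04, 10.07 and 9.83 in *w1118* (2.92, SE 0.37, adjusted p = 5.64e-05).

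*CG3397* showed the largest fall, to 4.08, 3.71 and 3.57 in double-mutants, against 9.43, 9.71 and 9.64 in *w1118*. That is a change of -5.81 (SE 0.44, adjusted p = 6.17e-08). *Drsl2*, a drosomycin-like peptide, measured 7.10, 5.65 and 5.47 in double-mutants and 10.53, 11.46 and 10.43 in *w1118* (-4.73, SE 0.87, adjusted p = 0.00356). Its call was lost when any 1 array other than double-mutant replicate 1 was left out (adjusted p from 0.0126 to 0.0282). *CG5966* was at 6.35, 4.47 and 4.63 in double-mutants and 9.58, 10.19 and 9.67 in *w1118* (-4.67, SE 0.72, adjusted p = 0.000625). Double-mutant replicate 1 was the highest of its group for both *Drsl2* and *CG5966*. *LysX*, a digestive lysozyme, measured 7.32, 6.94 and 7.25 in double-mutants and 11.48, 11.36 and 10.96 in *w1118* (-4.10, SE 0.49, adjusted p = 3.79e-05).

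*Rift*, a riboflavin transporter, was near the bottom of the scale in double-mutants at 3.13, 3.14 and 3.27, against 7.23, 7.25 and 7.10 in *w1118* (-4.01, SE 0.21, adjusted p = 1.21e-10). *mthl8*, a Methuselah-like receptor, fell by 3.46 and by 1.90 on its 2 probe sets (adjusted p = 9.27e-06 and 3.20e-05). *CG6870* (-3.35), the neprilysin-like *Nepl20* (-3.12), the alkaline phosphatase *Alp8* (-3.08) and *CG13405* (-3.06) made up the 10 largest falls. In double-mutants *Alp8* measured 3.24, 3.21 and 3.23 and *CG13405* 2.94, 3.54 and 3.12, against 6.44, 6.00 and 6.49 and 6.05, 6.59 and 6.14 in *w1118*. Both lay below 4 on every double-mutant array and above it on every *w1118* array.

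**Figure D2:**
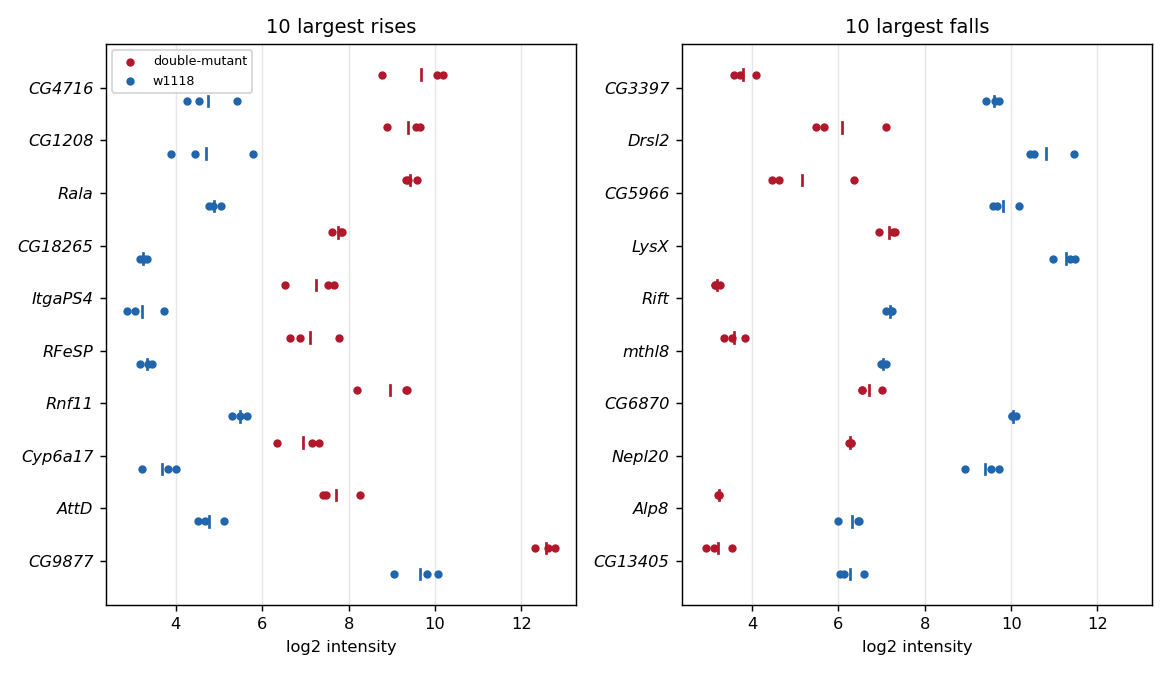
Log2 intensity (x axis) of the 10 genes with the largest called rises (left) and the 10 with the largest called falls (right), with 1 point for each array and a bar at the mean of 3, double-mutant above *w1118*. Genes were picked among called probe sets whose double-mutant and *w1118* arrays do not overlap, so the separation of the points was set by the selection. *CG3397* averages 3.79 in double-mutants and 9.59 in *w1118*.

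Glycolytic transcripts were lower in double-mutants than in *w1118*. Of 12 measured genes of the pathway, 8 fell, 0 rose, and the median change was -1.16, while over all 11983 genes 72 rose and 56 fell (1.07% called) around a median of -0.0046. The enzymes are taken in the order of the pathway. *Pgm1*, phosphoglucomutase, which links glycogen to glycolysis, measured 7.30, 7.71 and 7.46 in double-mutants and 9.73, 9.22 and 9.59 in *w1118* (-2.03, SE 0.28, adjusted p = 0.000145). The hexokinases that start the pathway were not called, with a value of -0.044 for *Hex-A* (adjusted p = 0.922), which was 0.11 with arrays centred, and 0.33 for *Hex-C* (adjusted p = 0.713). *Pgi*, glucose-6-phosphate isomerase, was at 8.07, 8.36 and 8.29 in double-mutants and 10.14, 9.93 and 10.17 in *w1118* (-1.84, SE 0.24, adjusted p = 9.63e-05). *Pfk*, the rate-limiting phosphofructokinase, measured 6.49, 6.99 and 6.93 in double-mutants against 8.54, 8.32 and 8.54 in *w1118* (-1.66, SE 0.22, adjusted p = 8.66e-05). For the 3 enzymes called here, every double-mutant array was below every *w1118* array.

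*Ald1*, aldolase, had the largest fall of the pathway, to 8.28, 9.37 and 8.60 in double-mutants against 11.35, 11.17 and 11.50 in *w1118* (-2.59, SE 0.32, adjusted p = 4.20e-05), and its second probe set fell by 1.36. *Tpi*, triosephosphate isomerase, measured 8.63, 10.14 and 9.43 in double-mutants and 11.60, 11.36 and 11.57 in *w1118* (-2.11, SE 0.34, adjusted p = 0.00121). Double-mutant replicate 1 was the lowest for both, and without it the *Tpi* value was -1.73 (adjusted p = 0.0114). The *Tpi* call was also lost with the 6 arrays alone (adjusted p = 0.0293). *Gapdh1*, one of the glyceraldehyde-3-phosphate dehydrogenases, was at 10.70, 10.86 and 10.80 in double-mutants and 11.81, 11.68 and 11.90 in *w1118* (-1.01, SE 0.20, adjusted p = 0.00658), a call lost when any 1 of the 6 arrays was left out (adjusted p from 0.0192 to 0.0412). *Gapdh2*, its close relative, is measured by 2 probe sets outside the list of 12 because the platform annotation does not name them. They were at 9.83, 10.49 and 9.98 and at 9.01, 9.51 and 9.40 in double-mutants, against 12.50, 12.19 and 12.49 and 11.61, 11.17 and 11.63 in *w1118*. That is -2.30 on the first (SE 0.20, adjusted p = 4.04e-07) and -2.16 on the second (adjusted p = 3.40e-07). The 3 GAPDH control probe sets of the array, left out of the counts, gave -2.40, -2.08 and -2.15 from the 3′ end to the 5′ end. Hence the GAPDH signal, which serves as a loading control on this platform, itself differed between the genotypes.

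*Pgk*, phosphoglycerate kinase, measured 8.22, 8.17 and 8.15 in double-mutants and 9.66, 9.18 and 9.65 in *w1118* (-1.31, SE 0.18, adjusted p = 0.000205). The mutases *Pglym78* (-0.54, adjusted p = 0.107) and *Pglym87* (-0.51, adjusted p = 0.376) were not called. *Eno*, enolase, was at 10.46, 10.55 and 10.48 in double-mutants and 11.39, 11.19 and 11.55 in *w1118* (-0.88, SE 0.14, adjusted p = 0.00134), and without *w1118* replicate 3 it was at -0.79 (adjusted p = 0.0141). Centring the arrays ended the *Eno* call (adjusted p = 0.0350) and that of *Gapdh1* (adjusted p = 0.0278), and the 6 arrays alone also ended that of *Eno* (adjusted p = 0.0147). The number of the 12 called lower was 6 or 7 with 1 array left out and 6 with arrays centred. The probe sets of *Pgi*, *Ald1*, *Tpi*, *Eno* and 1 of *Gapdh2* are of the type that can detect more than 1 transcript. *Ldh* (*ImpL3*), which makes lactate from the pyruvate at the end of glycolysis, measured 8.43, 7.44 and 7.91 in double-mutants and 8.74, 8.11 and 8.95 in *w1118*. These overlapped, and the change of -0.67 was not called (SE 0.34, adjusted p = 0.257). *Gpdh1*, glycerol-3-phosphate dehydrogenase, was at -0.18 (adjusted p = 0.791) and above 0 on 2 of its 3 other probe sets.

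The single mutants show where the glycolytic values of the double-mutant lie. For *Pfk* the change from *w1118* was -1.66 in double-mutants, 0.23 in *sima* and -1.20 in *dERR*. For *Pgi* it was -1.84, 0.15 and -1.36 in that order, and for *Eno* -0.88, 0.0047 and -0.90. These changes share the *w1118* arrays. Tested directly, 7 of the 12 genes were lower in double-mutants than in *sima* (median -1.33) and 0 were called against *dERR* (median -0.22). In all, 190 probe sets (1.01%) were called between double-mutants and *sima* and 46 (0.245%) between double-mutants and *dERR*. The *Ald1* level of 8.75 ± 0.56 in double-mutants lay below the 10.13 ± 0.53 of *dERR* without passing the threshold (-1.38, adjusted p = 0.0315). For the 2 *Gapdh2* probe sets, the differences from *dERR* were -0.90 (adjusted p = 0.0269) and -0.71 (adjusted p = 0.0596).

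**Figure D3:**
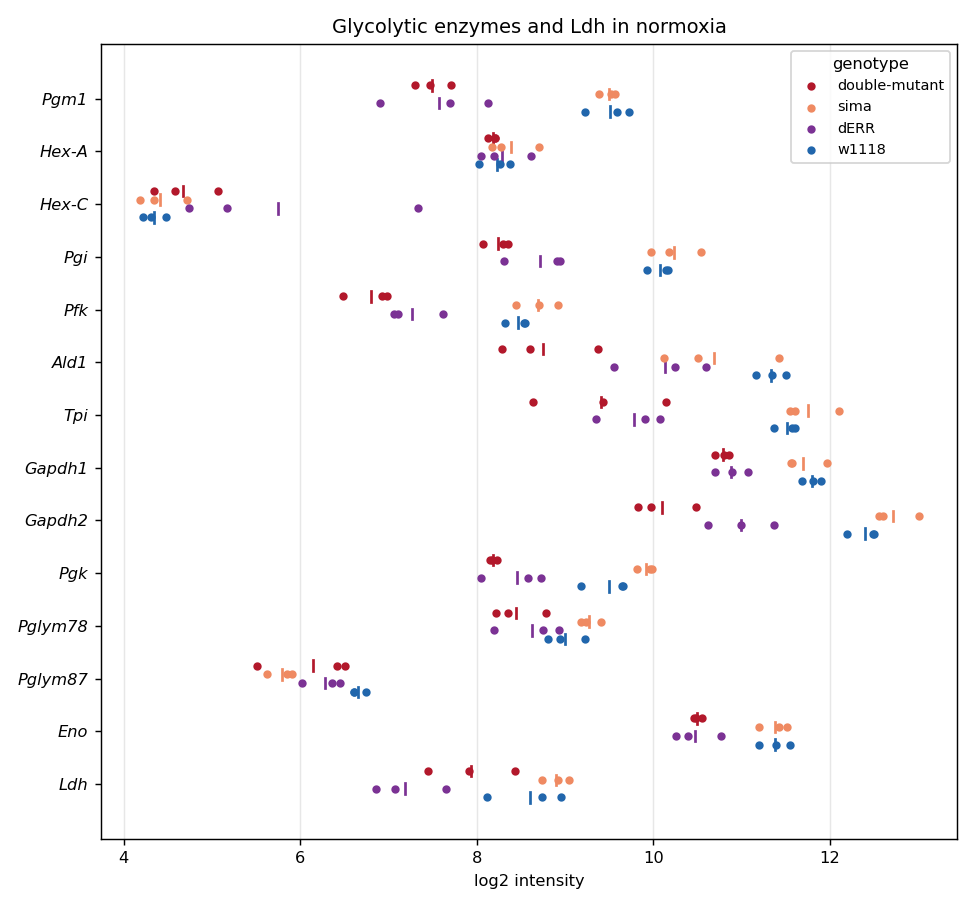
Log2 intensity (x axis) of glycolytic genes in pathway order and *Ldh*, in the 4 normoxic groups, with 1 point for each array and a bar at the mean of 3. *Gapdh2* is shown by the probe set that fell by 2.30, and for *Pfk* double-mutant and *dERR* arrays lie below all *sima* and *w1118* arrays.

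Both phosphoenolpyruvate carboxykinases, which open gluconeogenesis, fell in double-mutants, while *G6P* (-1.20, adjusted p = 0.139) and *fbp* (-0.52, adjusted p = 0.237) were not called. *Pepck1* measured 8.37, 10.15 and 8.40 in double-mutants and 10.90, 11.91 and 11.36 in *w1118* (-2.42, SE 0.42, adjusted p = 0.00207). *Pepck2* measured 7.98, 7.89 and 8.40 in double-mutants and 10.08, 11.05 and 10.51 in *w1118* (-2.46, SE 0.46, adjusted p = 0.00437). The 2 genes differed in the single mutants, where *Pepck1* was at 0.87 in *sima* and -0.24 in *dERR* and *Pepck2* at 0.32 and -2.41. Leaving out replicate 1 or 3 of double-mutants or replicate 2 or 3 of *w1118* ended the *Pepck1* call (adjusted p from 0.0116 to 0.0219). The *Pepck2* call was lost under the same omissions and without double-mutant replicate 2 (adjusted p from 0.0132 to 0.0376). No gene was called among 16 of the TCA cycle (median 0.22), 53 of oxidative phosphorylation (median 0.21), 6 of the pentose phosphate pathway (median -0.20) and 10 of glycogen and trehalose metabolism. In that last list the lowest values were -1.53 for *Tps1*, trehalose-6-phosphate synthase (adjusted p = 0.0742), and -0.89 for *Glys*, glycogen synthase (adjusted p = 0.0465). Nor was any of 12 amylases and maltases called by its own probe set, although their median was 1.30. The probe set shared by the amylases *Amy-p* and *Amy-d* rose, at 10.50, 11.64 and 11.10 in double-mutants and 9.67, 9.27 and 9.43 in *w1118* (1.62, SE 0.31, adjusted p = 0.00500). Its call held only with all arrays or without double-mutant replicate 1 (adjusted p from 0.0126 to 0.0384 under the other omissions).

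In the HIF pathway only *sima* itself was called, 1 of 8 measured genes. *Hph* (*fatiga*), the HIF prolyl hydroxylase, measured 8.33, 8.04 and 8.23 in double-mutants and 8.87, 8.46 and 8.71 in *w1118* (-0.48, SE 0.19, adjusted p = 0.175), with -0.62 on its second probe set (adjusted p = 0.0249). Neither probe set was called. The arrays of the 2 genotypes did not overlap on either, which held for 38.9% of all probe sets. Changes were -0.18 for *Vhl*, the recognition subunit of its ubiquitin ligase, -0.26 for *Cul2*, -0.22 for *EloB* and -0.026 for *Roc1a*, other ligase subunits. They were -0.022 for *tgo*, the dHIFα partner, and -0.14 for *scyl*, a HIF target that restrains TOR. With arrays centred, *tgo* (0.13), *Roc1a* (0.12) and *scyl* (0.014) changed sign. The FGF ligand *bnl*, which guides tracheal branching, was at -0.47 (adjusted p = 0.306), the polyamine oxidase *CG7737* at -0.12 (0.031 with arrays centred) and the diphthamide synthesis gene *Dph1* at -0.44 (adjusted p = 0.303). Other genes that the study names were not called either. *Alas* was at 0.24 (adjusted p = 0.340), *Nmnat* at -0.16 (adjusted p = 0.456), *Cyp6a22* at 0.45 (adjusted p = 0.461) and *CG31769* at 0.84 (adjusted p = 0.530).

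Few detoxification genes were called, and all of those rose. Among 80 cytochrome P450 genes 4 rose and 0 fell, or 5% called against 1.07% over all genes (median 0.23). The 4 were *Cyp6a17*, *Cyp9b1* (2.12, SE 0.32, adjusted p = 0.000499), *Cyp9b2* (1.67, SE 0.29, adjusted p = 0.00209) and *Cyp4p2* (1.31, SE 0.23, adjusted p = 0.00270). With 1 array left out, 2 to 4 of the 80 were called. *Cyp9b1* measured 5.95, 7.05 and 6.57 in double-mutants and 4.53, 4.39 and 4.27 in *w1118*, and its call was lost in a fit of the 6 arrays alone (adjusted p = 0.0146). *Cyp9b2* measured 10.71, 11.23 and 11.00 in double-mutants and 9.52, 9.21 and 9.21 in *w1118*. Leaving out replicate 2 or 3 of either genotype ended the *Cyp9b2* call (adjusted p from 0.0125 to 0.0156), and leaving out any array but double-mutant replicate 1 ended that of *Cyp4p2* (adjusted p from 0.0106 to 0.0211). P450 genes of a cluster are close in sequence, and probe sets may not keep them apart. Of 34 glutathione S-transferases, *GstT3* alone rose, at 10.36, 9.87 and 9.77 in double-mutants and 7.87, 7.52 and 7.59 in *w1118* (2.34, SE 0.23, adjusted p = 2.08e-06). That is 2.94% of the list, and a second member passed when *w1118* replicate 2 was left out. None of 35 UDP-glycosyltransferases was called (median 0.31).

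Antimicrobial peptide genes moved both ways, with 16% of 25 called against 1.07% over all genes. Of 25, *AttD* and *CecB*, a cecropin (1.23, SE 0.24, adjusted p = 0.00658), rose, and *Drsl2* and the antifungal *Drs* fell. *Drs* measured 8.95, 9.72 and 10.50 in double-mutants and 11.65, 13.60 and 12.83 in *w1118* (-2.97, SE 0.48, adjusted p = 0.00111). The call on *Drs* was lost without double-mutant replicate 1 or *w1118* replicate 2 (adjusted p = 0.0113 and 0.0124), and that on *CecB* under every omission except that of double-mutant replicate 2 (adjusted p from 0.0131 to 0.0561). Between 0 and 2 of the 25 stayed called when 1 array was left out. The hemocyte list gave 2 rises among 15 genes (13.3% called, median 0.049), both lamellocyte genes. *PPO3*, a prophenoloxidase, was at 5.69, 5.90 and 6.49 in double-mutants and 4.01, 3.86 and 4.00 in *w1118* (2.07, SE 0.40, adjusted p = 0.00519). *atilla*, a surface protein, was at 9.77, 10.50 and 10.48 in double-mutants and 8.99, 8.62 and 8.89 in *w1118* (1.42, SE 0.25, adjusted p = 0.00266). The first was lost under each of the 6 omissions (adjusted p from 0.0113 to 0.0447) and the second without replicate 2 or 3 of either genotype (adjusted p from 0.0126 to 0.0234). Other hemocyte genes such as *Hml* (0.049) and *He* (0.33) were not called, nor were the crystal cell prophenoloxidases *PPO1* (2.98, adjusted p = 0.0946) and *PPO2* (2.76, adjusted p = 0.0696). The summed intensity of the 15 hemocyte genes was 5026 to 6492.5 in double-mutants and 3719.7 to 4104 in *w1118*, without overlap. In *sima* it was 4123 to 4998 and in *dERR* 5278 to 8676, also above *w1118*. The part of this difference in these results was not tested.

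Calls in the other gene families were few, and over all genes 1.07% were called. The 19 genes of the ecdysone response held 1 call, *Eip63E*, a cyclin-dependent kinase gene first found as ecdysone-induced, which fell to 6.02, 6.19 and 6.01 in double-mutants against 8.86, 8.99 and 8.63 in *w1118* (-2.75, SE 0.19, adjusted p = 1.69e-08). *EcR* (-0.23, adjusted p = 0.598) and *br* (-0.081, adjusted p = 0.898) were not called. In the midgut list of 27, *LysX* was the only call. No call was made among 11 ecdysone synthesis genes, 10 salivary gland glue genes, 106 cuticle genes, 36 cytosolic and 69 mitochondrial ribosomal protein genes, 26 proteasome genes, 14 DNA replication genes, 19 lipid storage and breakdown genes or 10 heat shock genes. Of 8 purine breakdown genes (25% called), the aldehyde oxidase *AOX3* (0.98, adjusted p = 0.00500) and the adenosine deaminase *Adgf-A* (0.76, adjusted p = 0.00799) rose. *Adgf-A* lost its call under each of the 6 omissions and *AOX3* without replicate 2 or 3 of either genotype, with adjusted p between 0.0212 and 0.0517.

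**Figure D4:**
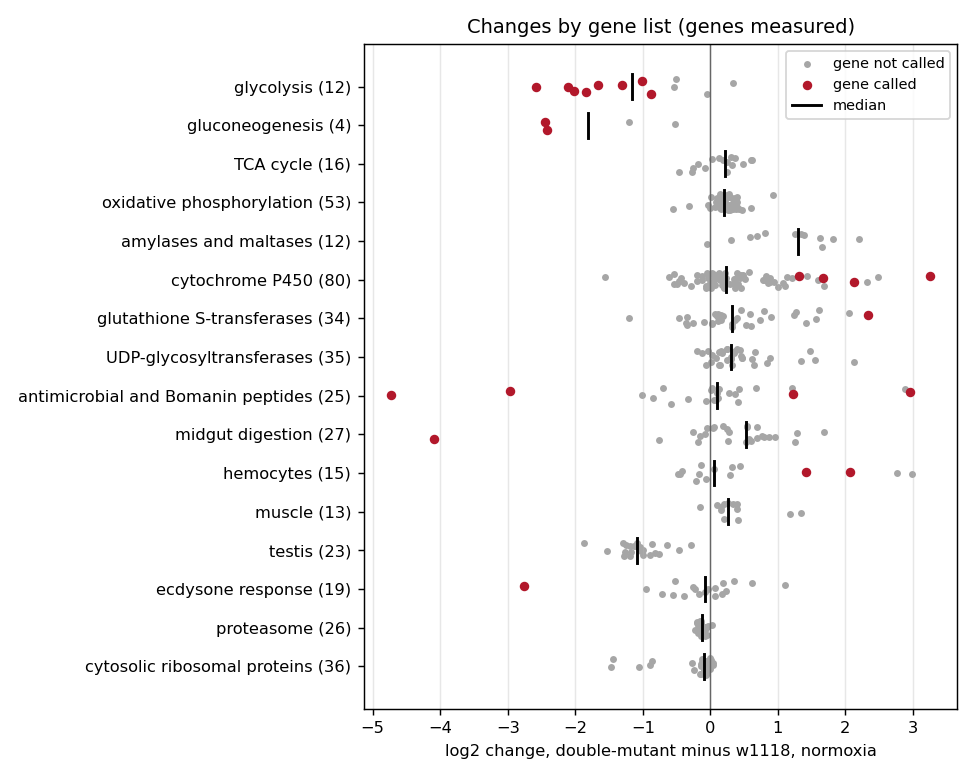
Log2 change between double-mutants and *w1118* (x axis) for the measured genes of 16 lists, with called genes in red and the median of each list as a bar. Glycolysis holds 8 called genes, all lower in double-mutants, and the TCA cycle and oxidative phosphorylation hold 0.

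Tissue marker lists were summed over each array. The summed intensity of 23 testis genes, such as the sperm protein genes *Mst84Da* to *Mst84Dd*, was 3275 to 8184 in double-mutants and 10626 to 14006 in *w1118*, without overlap. In *sima* it was 3942 to 5527 and in *dERR* 5107 to 9395. None of the 23 was called in double-mutants, though their median change was -1.08 (-0.93 with arrays centred). Leaving out *w1118* replicate 1 gave 1 call, as did quantile normalization, and a fit of the 12 normoxic arrays alone gave 2. The part of this difference in other results was not tested. The sums for muscle, midgut, fat body storage proteins, neurons and glue overlapped between double-mutants and *w1118*. The 13 muscle genes had a median change of 0.27 in double-mutants, -0.0073 without double-mutant replicate 2, and 1.52 in *dERR*. Defining markers below 4 on both sides were *LysP* of the midgut, *aly* of the testis and *VGlut*, *VAChT* and *para* of neurons.

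Some marker genes of fly stocks also differed between the genotypes. Of 12 measured eye pigment and stock marker genes, 2 were called higher, *y* and *pr*, and 0 lower (median 0.34). Over all genes 1.07% were called. *w* is outside those 12 because the platform annotation does not name its probe set. *y*, the yellow pigment gene, measured 5.35, 6.07 and 5.02 in double-mutants and 3.43, 3.59 and 3.20 in *w1118* (2.08, SE 0.24, adjusted p = 2.30e-05), a call lost with the 6 arrays alone (adjusted p = 0.0154). It was at 1.83 in *sima* and 0.24 in *dERR*. *w*, the eye colour gene mutated in the control strain, was at 6.27, 6.36 and 6.31 in double-mutants and 4.49, 4.68 and 4.67 in *w1118* (1.70, SE 0.17, adjusted p = 3.27e-06), and at 2.27 in *sima* and 0.57 in *dERR*. *pr*, a pteridine pigment gene, rose by 0.88 (SE 0.17, adjusted p = 0.00481), a call lost under each of the 6 omissions (adjusted p from 0.0131 to 0.0299). *ry*, xanthine dehydrogenase, measured 8.37, 8.07 and 8.43 in double-mutants, 3.25, 2.88 and 2.82 in *sima*, 7.83, 7.81 and 7.81 in *dERR* and 7.36, 6.98 and 7.35 in *w1118*. Of the 4 genotypes *sima* alone was low, and the double-mutant value of 1.06 against *w1118* was not called (adjusted p = 0.0632). How strain background bears on the other changes was not tested.

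The position of called genes was read from gene order in the Release 6 annotation. The share of probe sets called was 0.992% on X, 0.564% on 2L, 1.27% on 2R, 1.22% on 3L, 1.07% on 3R and 3.66% on 4, where it was 3 of 82. Within 25 genes on either side of *sima*, on 3R, 2 of 37 probe sets were called, *Tpi* at 6 genes and *CG7912* at 23 genes (2.04, adjusted p = 0.00799), which lost its call under each of the 6 omissions (adjusted p from 0.0122 to 0.0636). Within 400 genes it was 11 of 541, which include *Nepl20* and *Rift*. Around *ERR*, on 3L, 1 of 43 was called within 25 genes, *mthl7*, 2 genes away, at 4.99, 4.94 and 5.15 in double-mutants and 3.58, 3.43 and 3.30 in *w1118* (1.59, SE 0.22, adjusted p = 0.000205), and 4 of 658 within 400 genes. *CG7912* and *mthl7* were named for their position after their values were known. Linked sequence carried over with either mutation cannot be told apart from effects of the mutation in these groups.

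The largest double-mutant changes were set beside those of each mutation alone. All of these changes are relative to the same *w1118* arrays, between which and *sima* 275 probe sets (1.47%) and *dERR* 429 (2.29%) were called. *CG18265* was at 4.52 in double-mutants, 0.093 in *sima* and 4.16 in *dERR*. *LysX* was at -4.10, 1.29 and -4.92 in the same order of genotypes. *mthl8* averaged 3.57 in double-mutants, 7.29 in *sima*, 4.03 in *dERR* and 7.03 in *w1118*. For these 3 genes the double-mutant lay near *dERR*. *Rift* lay near the *sima* value instead, with -4.01 in double-mutants, -4.14 in *sima* and -0.20 in *dERR*. *Rala* was high in every mutant, at 4.54 in double-mutants, 4.64 in *sima* and 4.28 in *dERR*, and so was *GstT3* at 2.34, 2.21 and 1.91. *CG3397* was lower in double-mutants than in either single mutant, at 3.79 ± 0.26 against 8.76 ± 0.46 in *sima* (-4.97, adjusted p = 4.08e-07) and 7.52 ± 0.61 in *dERR* (-3.74, adjusted p = 0.000116). *CG14567*, the opposite case, measured 9.46 ± 0.27 in double-mutants, 6.31 ± 0.39 in *sima*, 7.46 ± 0.37 in *dERR* and 7.71 ± 0.15 in *w1118*. It was called against all 3, with differences of 3.16, 2.00 and 1.75, but the difference from *dERR* passed only with all arrays or without double-mutant replicate 2 (adjusted p from 0.0121 to 0.0729 under the other omissions), and was lost with all arrays centred (adjusted p = 0.0159) or quantile normalized (adjusted p = 0.0133). Its difference from *w1118* was lost under each of the 6 omissions (adjusted p from 0.0175 to 0.0526).

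The largest direct differences from *sima* were *CG32198* (5.48), *ry* (5.31) and *CG18265* (4.42) upwards and *LysX* (-5.39), *CG5966* (-5.08) and *CG3397* (-4.97) downwards. *CG32198* varied widely, at 8.53, 12.40 and 11.45 in double-mutants and 5.63, 5.40 and 4.91 in *sima*, and its call was lost without double-mutant replicate 2 (adjusted p = 0.0157) or 3 (adjusted p = 0.0162). Against *dERR* the largest were *CG11893* (4.53), *CG14406* (2.73) and *CG14567* (2.00) upwards and *Rift* (-3.81), *CG15534*, an acid sphingomyelinase (-3.76), and *CG3397* (-3.74) downwards. *CG11893* measured 7.38, 9.06 and 8.12 in double-mutants, 4.78, 3.33 and 2.87 in *dERR* and 9.01, 8.11 and 8.28 in *w1118*. Among these groups *dERR* was the low one. Without double-mutant replicate 3 the adjusted p was 0.0189 for *CG11893*, 0.0189 for *CG15534* and 0.0226 for *CG14406*. Without double-mutant replicate 1 it was 0.0180 for *CG15534* and 0.0286 for *CG14406*. The count of 46 against *dERR* ranged from 11 without double-mutant replicate 3 to 85 without double-mutant replicate 2. The *sima* and *dERR* arrays were not left out in turn.

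Whether the double-mutant change equals the sum of the 2 single mutant changes was tested on the log2 scale, as double-mutant minus *sima* minus *dERR* plus *w1118*. This value differed from 0 for 221 probe sets (1.18%), 66 above the sum and 155 below it. For the 5 genes farthest below the sum, the mean was higher in each single mutant than in the double-mutant, but none of these differences was called (adjusted p from 0.0132 to 0.919), and double-mutant and *sima* arrays of *CG4716* overlapped. *Cyp6a17* was at 3.26 in double-mutants, 4.92 in *sima* and 4.79 in *dERR*, a departure of -6.45 (adjusted p = 1.23e-07). *CG4716* was at 4.93, 5.34 and 6.09 in the same order (-6.50, adjusted p = 0.00404), and *Cyp6a8* at 0.88, 2.78 and 3.03 (-4.93, adjusted p = 7.90e-05). *Rala* departed by -4.38 (adjusted p = 8.85e-12), with means of 9.43 in double-mutants, 9.53 in *sima* and 9.17 in *dERR* against 4.89 in *w1118*. The value also departs from 0 where *w1118* differs from every mutant genotype alike, as for *Rala*. In such genes a strain difference cannot be told apart from a joint effect of the 2 mutations. Of 80 P450 genes 6 were below the sum and 0 above. *CG15255* departed by -6.06 (adjusted p = 0.00251, and 0.0103 without double-mutant replicate 1). *CG14499* departed by -5.61 (adjusted p = 0.00362), which was lost without replicate 1 or 3 of double-mutants or replicate 2 or 3 of *w1118* (adjusted p from 0.0105 to 0.0152). Of the 5 genes farthest above the sum, *CG4408*, *CG8160*, *ry* and *CG9040* were lower in *sima* than in the double-mutant (adjusted p from 4.92e-10 to 0.000984) and *CG14406* was lower in *dERR* (adjusted p = 0.00238). *CG4408* measured 9.13, 8.35 and 8.90 in double-mutants, 4.41, 4.73 and 4.45 in *sima*, 7.87, 7.98 and 8.05 in *dERR* and 9.47, 9.51 and 9.39 in *w1118* (5.75, adjusted p = 1.02e-08). *ry* departed by 4.72 (adjusted p = 7.46e-07), *CG8160* by 4.87 (adjusted p = 0.00503), *CG14406* by 4.15 (adjusted p = 0.000500) and *CG9040* by 4.02 (adjusted p = 0.00132). *Pepck1* lay below the sum by 3.05 (adjusted p = 0.00551), as did the second *Gapdh2* probe set by 1.27 (adjusted p = 0.00822), while the first *Gapdh2* probe set gave -1.22 (adjusted p = 0.0172). The *Pepck1* departure was lost without double-mutant replicate 1 or 3 or *w1118* replicate 1 or 3 (adjusted p from 0.0157 to 0.0211), and that of *Gapdh2* under every omission except that of double-mutant replicate 2 (adjusted p from 0.0135 to 0.0326). *Alas* departed by -1.06 (adjusted p = 0.00699), with changes from *w1118* of 0.24 in double-mutants, 0.81 in *sima* and 0.49 in *dERR*. None of the 12 listed glycolytic genes departed from the sum (median -0.54). The departure of *CG4716* was lost without double-mutant replicate 1 or *w1118* replicate 1 or 2 (adjusted p from 0.0115 to 0.0153), and that of *CG8160* without double-mutant replicate 3 or any *w1118* array (adjusted p from 0.0118 to 0.0188). The count was 105 to 116 under each omission other than that of double-mutant replicate 2, which gave 222.

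**Figure D5:**
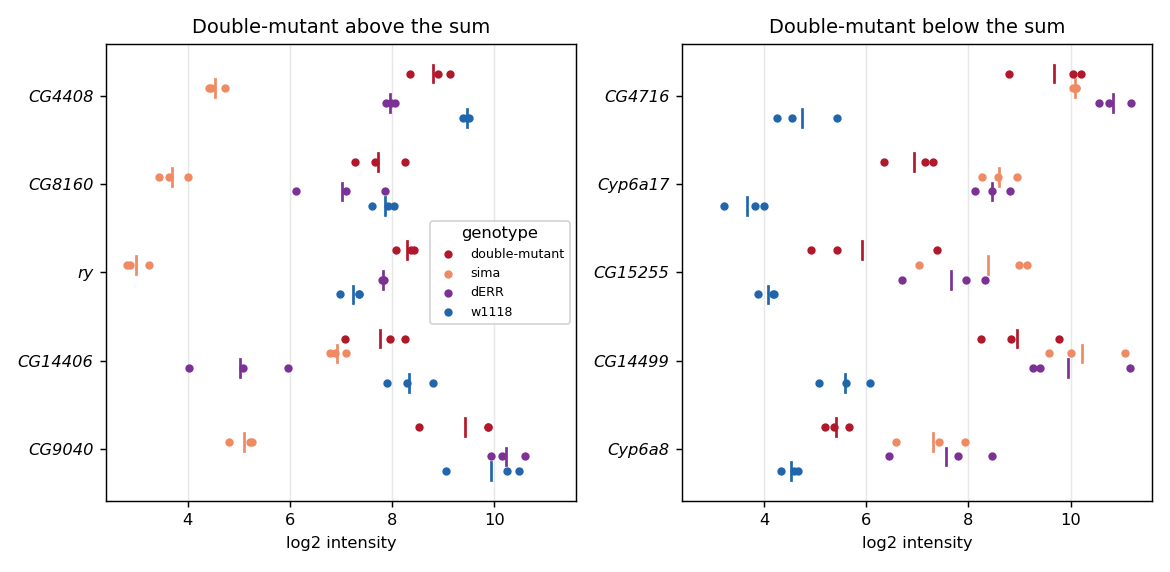
Log2 intensity (x axis) in the 4 normoxic groups for the 5 genes whose double-mutant change lies farthest above (left) and farthest below (right) the sum of the single mutant changes, with 1 point for each array and a bar at the mean of 3. *Cyp6a17* is high in all 3 mutant genotypes, and *ry* is low in *sima* alone.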

How the data were processed

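Whole larvae of each genotype were profiled on Affymetrix Drosophila Genome 2.0 arrays. The authors converted the scans to 1 intensity for each probe set with RMA, and the deposited intensity values are on a linear scale; the RMA version, and which arrays were normalized together, are not stated there. Values were turned to log2 and fitted with limma 3.58.1 in R 4.3.3, as 1 model of 8 groups over 26 arrays and 18769 probe sets, after 183 control probe sets were set aside. p-values were Benjamini-Hochberg adjusted over all probe sets. The replicates are labelled biological, with no statement of separate crosses, so p-values measure the spread between these samples. An exact permutation test of 3 against 3 arrays cannot go below 0.1 and was not used. No 2 arrays held identical values.

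Names came from the platform annotation (13647 probe sets with 1 gene, 402 with several, 4903 with none), and 162 unnamed probe sets, such as those of *Gapdh2*, *Rala*, *Ldh* and *w*, were named from the study's own gene table. For lists, each gene was represented by its probe set with the highest mean, and 46 lists had measured members. Genes named in the text were drawn from the 10 largest called rises and falls among probe sets whose double-mutant and *w1118* arrays do not overlap. Others were drawn from up to 4 called genes of a list and 5 in each direction for the other contrasts. All measured members of the HIF and glycolysis lists were named, and so were those of a list of 17 genes from the study text. The comparison and the lists were chosen with earlier results of these data known. Alternatives covered the arrays in the fit, centring, quantile normalization, the variance model, the scale, dim probe sets and thresholds. The replicate number as a block was also run, as was SAM, coded here rather than run with the study's program. Each double-mutant and *w1118* array in normoxia was left out in turn, but no *sima* or *dERR* array was. The scripts were tested on simulated data. No sequences were analysed here.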

Additional observations from a re-analysis of the deposited data

Results flagged for a closer look

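The double-mutant minus *w1118* difference was also measured in hypoxia, which was 6 h at 4% oxygen at the same stage and temperature. For 5 of the named genes this difference was unlike the one in normoxia when the difference between the 2 was tested. The study had already classed these 5 as HIF-dependent, from comparisons that include the same *w1118* arrays. They were thus known to change with hypoxia in those arrays, and the test on them is not independent of that choice. The test (limma) compared 3 double-mutant arrays in each condition with 5 *w1118* arrays in hypoxia and 3 in normoxia. *Hph* was at -3.27 in hypoxia and -0.48 in normoxia, a difference of -2.79 (adjusted p = 4.41e-06). *Vhl* was at -1.36 in hypoxia and -0.18 in normoxia, a difference of -1.18 (adjusted p = 0.00298). *CG7737* was at -2.99 in hypoxia and -0.12 in normoxia (-2.87, adjusted p = 2.17e-05), *bnl* at -3.09 and -0.47 (-2.62, adjusted p = 0.000400) and *Dph1* at -3.54 and -0.44 (-3.09, adjusted p = 2.48e-05). Over all probe sets 90 passed this test, 45 in each direction. Groups of 3 arrays were not searched for single arrays that stand apart.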

How the results depend on the processing

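In place of the 168 probe sets called between double-mutants and *w1118*, the 6 arrays alone gave 108, with only 79 of the 168 among them. The replicate number as a block gave 105, with 80 of the 168, and the 12 normoxic arrays gave 212, with 118 of the 168. The count was 373 at an adjusted p under 0.05 and 989 by SAM (389 higher and 600 lower, 167 of the 168 among them). More were lower than higher also with the 12 normoxic arrays (97 and 115), with the block (51 and 54) and in each omission other than that of double-mutant replicate 2 (61 and 53). Arrays with the same number did not deviate together, with correlations of -0.0078, -0.080 and 0.052, so the block is not a pairing given by the design. Leaving out 1 double-mutant or *w1118* array gave 81 to 114 calls here, 92 to 181 against *sima* and 11 to 85 against *dERR*. It gave 105 to 222 departures from the sum. No *sima* or *dERR* array was left out, so how these contrasts depend on those arrays was not tested. In the same order for *sima*, *dERR* and the sum, the replicate block gave 88, 22 and 81 calls and the 0.05 threshold 347, 207 and 635, while against *dERR* the 12 normoxic arrays gave 29 and centred arrays 21. Of 77 called values of named genes, 39 kept their call under every alternative run and 0 changed sign, and the block ended 28. The 6 arrays alone ended the calls of *Tpi*, *Eno*, *Cyp9b1*, *y*, *Pepck1*, *Drs*, *CecB*, *atilla*, *AOX3*, *Adgf-A* and the shared *Amy* probe set (adjusted p from 0.0112 to 0.0487), and the 12 normoxic arrays those of *Drsl2*, *Pepck1*, *Cyp9b2*, *Drs*, *CecB*, *PPO3*, *AOX3*, *Adgf-A* and *Amy* (adjusted p from 0.0115 to 0.0226). Sign changes fell on uncalled genes. With arrays centred, *tgo* was at 0.13, *scyl* at 0.014, *Roc1a* at 0.12, *Hex-A* at 0.11 and *CG7737* at 0.031, and with quantile normalization *tgo* was at 0.021 and *Roc1a* at 0.0029. With 1 array left out, *ERR* ranged from -0.0052 to 0.11, *tgo* from -0.14 to 0.11, *scyl* from -0.32 to 0.048, *Roc1a* from -0.069 to 0.056, *Hex-A* from -0.14 to 0.034, *Gpdh1* from -0.46 to 0.077, *CG7737* from -0.20 to 0.031, *seq* from -0.039 to 0.18 and *Prx6c* from -0.029 to 0.58. The cause of these shifts was not tested. Centring also turned the sign of the median of 14 lists, none of them glycolysis, which had 6 to 8 calls in the alternatives run on lists. The block was not run on lists, and gene by gene it ended the calls of *Ald1*, *Tpi*, *Gapdh1* and *Eno* (adjusted p from 0.0107 to 0.0262). With 3 arrays a group the number of arrays limits the precision, and values near the bottom of the scale had no test of detection. These include *Rift*, *mthl8*, *CG3397*, *Alp8* and *CG13405* in double-mutants and *CG18265*, *ItgaPS4*, *RFeSP* and *Cyp6a17* in *w1118*, so the sizes of their changes are uncertain.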
